A study of Mus musculus with 12 samples.

Results

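The 51 genes described here encode proteins that copy DNA in S phase and supply its building blocks. They were chosen by name, from a list of symbols, out of the 55471 genes of the deposited table. The list was drawn up with earlier results of these data known. All 51 were in the table and passed the filter on low counts that left 14610 genes to test. RNA of EDTA-isolated colonic crypts was sequenced from 8-week-old female C57BL/6J mice, with 3 mice and 3 libraries in each of 4 groups. CBPWTp53-floxed mice carried wild-type CBP and floxed Trp53 alleles, and CBPAAp53-floxed mice carried the same floxed alleles with a CBP, the histone acetyltransferase encoded by Crebbp, in which a pair of phosphorylated serines is replaced by alanine. CBPWTp53ΔIEC and CBPAAp53ΔIEC mice had the floxed alleles deleted by Cre from the Villin promoter, which is active in intestinal epithelial cells, so other cells of a crypt preparation kept p53. Floxed p53 alleles were thus common to all 4 groups. The CBP knock-in was made in embryonic stem cells and backcrossed, and the methods of the study differ on the strain of those cells.

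Eukaryotic replication starts when the origin recognition complex, Cdc6 and Cdt1 load the Mcm2 to Mcm7 ring onto DNA. Cdc45 and the 4-part GINS complex then turn this ring into the active helicase, DNA polymerase alpha-primase lays down primers, and DNA polymerases delta and epsilon extend them on the Pcna clamp. Ribonucleotide reductase and the thymidylate enzymes provide the deoxynucleotides, and most of these genes are known targets of E2F factors that are transcribed at the entry into S phase. In the colon, cells in S phase lie in the lower crypt, so the level of these genes in crypt RNA follows both how many cells cycle and how much each one transcribes, which bulk RNA cannot tell apart.

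Library totals ran from 11177430 to 18029125 counted reads, of which the 51 members took 0.0707% to 0.173%. Counts per member and library ran from 8, for Dscc1, to 2042, for Pcna, so low counts limit the folds of the lowest members most. The standard errors given below did not follow the counts alone. Trp53 stood at 24.6, 28.6 and 30.4 TPM (a level scaled to gene length and library size) in CBPWTp53-floxed crypts and at 5.44, 3.26 and 4.15 in CBPWTp53ΔIEC crypts. CBPAA mice had Trp53 at 33.5, 30.7 and 23.3 TPM with floxed and 5.05, 4.66 and 6.13 TPM with deleted p53, so every p53ΔIEC library was below every floxed one. The epithelial markers, 8 genes such as Epcam and Krt8, summed to 11006 to 15866 TPM per library, while 12 stromal genes summed to 4.29 to 8.54 TPM and 8 endothelial genes to 1.07 to 1.85 TPM.

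Some libraries stood apart in a way that the groups do not explain. Lyz1, a lysozyme of Paneth cells, which the colon normally lacks, was at 2281 TPM in CBPWTp53ΔIEC replicate 1, 789 in CBPAAp53ΔIEC replicate 3, 410.1 in CBPAAp53ΔIEC replicate 1 and 123 in CBPAAp53-floxed replicate 2, and at 13.7 TPM or less in the other 8 libraries. The summed level of the 8 Paneth genes listed ranged from 358 to 20770.3 TPM and that of 14 small intestine genes from 1666 to 16455 TPM, both highest in CBPWTp53ΔIEC replicate 1; Ang4, which is not particular to Paneth cells, made up most of the Paneth sum in the libraries with little Lyz1. The library names also carry a number whose meaning is not given in the sources used here; those of CBPWTp53ΔIEC replicate 1 and CBPAAp53ΔIEC replicate 3 are far from those of the other p53ΔIEC libraries, which are close to each other. Every floxed library has a smaller number than those neighbouring p53ΔIEC libraries. These facts are set beside the results that they touch.

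Deletion of p53 in mice with wild-type CBP was accompanied by higher levels of most of the replication genes. In CBPWTp53ΔIEC vs CBPWTp53-floxed crypts, 35 of 51 members rose and 0 fell. Past the cutoff here and below means a log2 fold change beyond 0.5 either way with a Benjamini-Hochberg adjusted p (edgeR, quasi-likelihood test, 14610 genes) below 0.05. By this measure 2.29% of all genes rose. The median log2 fold change of the members was 1.05, or 2.06-fold, against 0.0098 over all genes tested, and all 51 were above 0 where 51.2% of all genes were. The largest changes were those of Tk1 (1.99), Rrm2 (1.83), Pole (1.72), Uhrf1 (1.69) and Dscc1 (1.65) on the log2 scale, and the smallest those of Rfc1 (0.27), Gins4 (0.28), Rpa3 (0.28) and Pold3 (0.32), none of which passed the test. An unadjusted p under 0.05 with a positive change was reached by 49 members and by 12.6% of all genes. On the scale of CPM (reads scaled to library size, here after TMM normalization), all 3 CBPWTp53ΔIEC libraries lay above all 3 CBPWTp53-floxed libraries for 47 members, and for 16.1% of all genes; the exceptions were Orc1, Gins3, Rfc1 and Rpa3.

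The sizes of these changes were steadier than the count of genes past the cutoff. With any of 5 libraries of this comparison left out, the 3 CBPWTp53-floxed libraries and CBPWTp53ΔIEC replicates 2 and 3, the count fell to 0 or 1 members, and with CBPWTp53ΔIEC replicate 1 left out it was 43, with 4.33% of all genes higher; the median log2 fold change stayed between 0.96 and 1.21 in all 12 such fits. For the fits with 0 or 1 members no share of all genes is given, so a general loss of calls cannot be told from one of the members. DESeq2 on the same 12 libraries placed 44 members past the cutoff, and 4.18% of all genes rose with it. Without the 2 libraries with the most Lyz1, 46 members passed, and without the 4 libraries over 100 TPM of Lyz1, 47; of all genes, 6.09% and 7.11% rose in those fits.

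**Figure D1:**
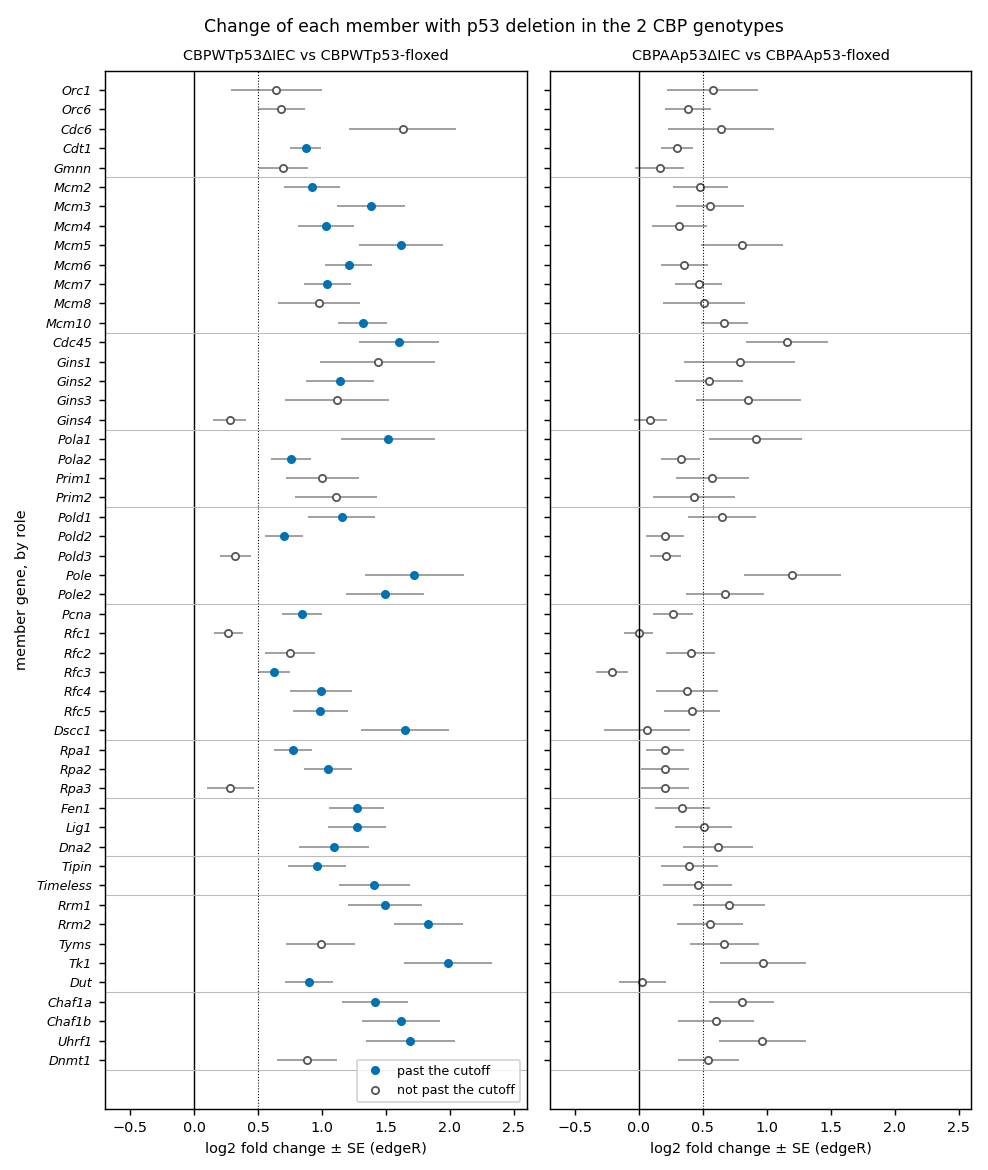
Log2 fold change (x axis, ± SE from edgeR) of each of the 51 members (y axis, grouped by role) for p53 deletion in CBPWT mice (left) and in CBPAA mice (right); filled points passed the cutoff, open points did not, and the dotted line marks the fold cutoff of 0.5. On the left all 51 points lie right of 0 and 35 are filled; on the right 49 lie right of 0 and none is filled.

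Because so many members moved together, their promoters were read for the letters that E2F factors are known to bind. Promoters of 300 bases (250 before and 50 after the transcription start, RefSeq, GRCm38.p6) were at hand for 41 of the 51 members. The E2F words TTTCCCGC, TTTCGCGC, TTTGCCGC and TTTGGCGC, searched on both strands, were found for 17 of the 41 (41.5%) and for 2.60% of the 26994 genes in the promoter table. The CCAAT box (CCAAT) was found for 25 members (61%, all genes 41%), and TTTGAA, the letters of the cell cycle genes homology region, for 6 (14.6%, all genes 20.2%). Members with an E2F word were Orc1, Cdc6, Cdt1, Mcm3, Mcm5, Mcm6, Mcm7, Mcm8, Gins3, Pola1, Pold1, Pold3, Pole2, Rfc3, Lig1, Uhrf1 and Dnmt1. Of these 17, 11 rose in CBPWTp53ΔIEC vs CBPWTp53-floxed, with a median log2 fold change of 1.15, and of the 24 without such a word in the window 19 rose, with a median of 1.00; the groups were not tested against each other. Rrm2, Tk1, Pcna and Fen1, which all rose, are among those with no E2F word in the window.

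The 5 stretches below lie upstream of the RefSeq start of their window, outside annotated exons, and carry the matched E2F words in capitals on either strand. Uhrf1 has a further window whose start lies before its stretch, and the stretch of Cdc6 lies inside the annotated span of that gene. All stretches with a word so placed are shown, Mcm5 and Mcm6 share a role, and the words were fixed by the search. They are those of Cdc6 (chr11:98908013-98908132, plus strand, bases -138 to -19 from the start), Mcm5 (chr8:75109356-75109475, plus strand, bases -153 to -34 from the start), Mcm6 (chr1:128359706-128359825, minus strand, bases -120 to -1 from the start), Pola1 (chrX:93632174-93632293, minus strand, bases -138 to -19 from the start) and Uhrf1 (chr17:56304128-56304247, plus strand, bases -185 to -66 from the start). In Mcm5 and Mcm6 a sense and an antisense word overlap, and Mcm6 holds a further word nearer the start.
Cdc6: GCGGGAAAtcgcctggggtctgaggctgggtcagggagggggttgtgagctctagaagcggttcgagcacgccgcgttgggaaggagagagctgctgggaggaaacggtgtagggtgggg
Mcm5: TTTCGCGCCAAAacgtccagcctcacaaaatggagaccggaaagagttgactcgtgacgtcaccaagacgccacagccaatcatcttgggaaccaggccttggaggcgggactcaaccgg
Mcm6: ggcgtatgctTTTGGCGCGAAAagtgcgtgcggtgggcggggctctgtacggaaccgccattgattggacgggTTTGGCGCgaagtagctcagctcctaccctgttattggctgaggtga
Pola1: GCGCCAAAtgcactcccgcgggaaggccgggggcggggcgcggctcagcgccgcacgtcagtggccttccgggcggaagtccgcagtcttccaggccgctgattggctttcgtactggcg
Uhrf1: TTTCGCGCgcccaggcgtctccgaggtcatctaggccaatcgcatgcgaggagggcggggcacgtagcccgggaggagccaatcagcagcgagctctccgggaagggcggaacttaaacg

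Origin licensing had the smallest share of members past the cutoff. Of its 5 members, 1 rose in CBPWTp53ΔIEC vs CBPWTp53-floxed crypts, Cdt1, which brings the Mcm ring to origins. Cdt1 (chr8:122568015-122573554, plus strand; GRCm38 here and below) was at 12.6, 13.1 and 14.9 TPM in CBPWTp53-floxed and 18.8, 23.3 and 31.6 TPM in CBPWTp53ΔIEC crypts, with no overlap and a log2 fold change of 0.87 ± 0.12 (SE; adjusted p = 0.0126, edgeR). CBPAA mice had Cdt1 at 20.3, 16.8 and 14.7 TPM with floxed p53 and 25.01, 25.01 and 19.4 TPM without, which overlap. Gmnn (chr13:24751845-24761923, minus strand), the inhibitor of Cdt1 and the member of this group with the highest level, was at 15.1, 16.5 and 17.5 TPM in CBPWTp53-floxed and 22.9, 26.7 and 27.99 TPM in CBPWTp53ΔIEC crypts, a change of 0.70 ± 0.19 that did not pass the test (adjusted p = 0.0626). CBPAA mice had Gmnn at 17.01, 20.5 and 14.4 TPM with floxed and 25.98, 23.9 and 14.3 TPM with deleted p53, and CBPAAp53ΔIEC replicate 3 was below all 3 floxed libraries. Cdc6, the loading ATPase, had a log2 fold change of 1.63 ± 0.42 (adjusted p = 0.0516). CBPWTp53ΔIEC replicate 1, at 1.37 TPM, lay within the floxed range of 1.23 to 1.46 TPM while replicates 2 and 3 were at 4.82 and 6.83 TPM. On the CPM scale CBPWTp53ΔIEC replicate 1 was above all 3 CBPWTp53-floxed libraries. Orc1 and Orc6, subunits of the origin recognition complex, had log2 fold changes of 0.64 and 0.68 and did not pass. Averaged over both CBP genotypes, the changes past the cutoff were 0.53 for Orc6, 1.14 for Cdc6 and 0.58 for Cdt1.

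The MCM genes rose almost as a block. In CBPWTp53ΔIEC vs CBPWTp53-floxed crypts 7 of 8 rose, all of Mcm2 to Mcm7, the subunits of the helicase ring, with log2 fold changes of 0.92 (Mcm2) to 1.62 (Mcm5), and Mcm10, a factor of helicase activation. Mcm8, a relative that acts in recombination rather than in the ring, had a change of 0.98 ± 0.32 and did not pass (adjusted p = 0.105). Mcm7 (chr5:138164583-138172422, minus strand), the most abundant of them, was at 20.3, 22.1 and 21.3 TPM in CBPWTp53-floxed and 29.04, 46.1 and 55.7 TPM in CBPWTp53ΔIEC crypts (log2 fold change 1.04 ± 0.18, adjusted p = 0.0248). It was at 29.4, 24.2 and 20.7 TPM in CBPAAp53-floxed and 45.00, 42.96 and 24.4 TPM in CBPAAp53ΔIEC crypts. Replicates 1 and 2 of the last group were above every floxed library, and replicate 3 was among them. Mcm10 (chr2:4989714-5012791, minus strand) was at 2.73, 2.68 and 2.16 TPM with floxed and 4.41, 6.77 and 7.51 TPM with deleted p53 in the CBPWT mice (log2 fold change 1.32 ± 0.19, adjusted p = 0.0126). CBPAA mice had Mcm10 at 3.55, 3.06 and 2.41 TPM with floxed and 6.37, 5.60 and 3.73 TPM with deleted p53, where the groups did not overlap. Mean TPM within the ring went from 8.17 ± 0.587 (SD, n = 3) to 15.5 ± 5.37 for Mcm2, the least abundant subunit, and from 9.76 ± 0.746 to 30.3 ± 13.1 for Mcm5. The summed mean TPM of the 6 subunits was 76.3 in CBPWTp53-floxed, 95.8 in CBPAAp53-floxed, 175 in CBPWTp53ΔIEC and 146 in CBPAAp53ΔIEC crypts. Averaged over both CBP genotypes, the same 7 genes were past the cutoff, with log2 fold changes of 0.70 for Mcm2, 0.97 for Mcm3, 0.67 for Mcm4, 1.21 for Mcm5, 0.78 for Mcm6, 0.76 for Mcm7 and 0.99 for Mcm10.

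Of the 5 genes of helicase activation, Cdc45 and Gins2 rose in CBPWTp53ΔIEC vs CBPWTp53-floxed crypts. Cdc45 (chr16:18780447-18811987, minus strand), which binds the Mcm ring, was at 1.43, 1.87 and 1.67 TPM in CBPWTp53-floxed and 2.72, 5.05 and 7.57 TPM in CBPWTp53ΔIEC crypts, a log2 fold change of 1.60 ± 0.31 (adjusted p = 0.0283). CBPAA mice had Cdc45 at 1.83, 1.33 and 1.05 TPM with floxed and 4.34, 3.95 and 1.96 TPM with deleted p53; again no floxed library reached a p53ΔIEC one, and the change was 1.16 ± 0.32 with an adjusted p of 0.32. Of the GINS subunits, Gins2 rose (1.14 ± 0.27, adjusted p = 0.0388), and Gins1 (1.44 ± 0.45, adjusted p = 0.0925) and Gins3 (1.12 ± 0.41, adjusted p = 0.139) did not pass. Gins4 (chr8:23226616-23237659, minus strand), the most abundant of the 4, had the smallest change. It was at 27.4, 26.4 and 23.5 TPM in CBPWTp53-floxed, 27.6, 31.4 and 32.1 in CBPWTp53ΔIEC, 26.97, 25.2 and 25.9 in CBPAAp53-floxed and 31.7, 32.5 and 27.1 in CBPAAp53ΔIEC crypts. Its change was 0.28 ± 0.13 (adjusted p = 0.237), and its mean TPM was 12.6 times that of the lowest GINS gene in CBPWTp53-floxed and 6.02 times in CBPWTp53ΔIEC crypts, although the 4 proteins form 1 complex. Averaged over both CBP genotypes, 1.38 for Cdc45 and 0.84 for Gins2 were past the cutoff on the log2 scale.

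The genes of DNA polymerase alpha-primase were expressed at low levels, with means over the 12 libraries of 1.93 TPM for Prim2 to 6.39 TPM for Prim1. Of its 4 genes, Pola1, the polymerase subunit (log2 fold change 1.52 ± 0.37, adjusted p = 0.0445), and Pola2, its regulatory subunit, rose in CBPWTp53ΔIEC vs CBPWTp53-floxed crypts. Pola2 (chr19:5940542-5964202, minus strand) was at 3.77, 4.14 and 4.73 TPM with floxed and 4.86, 7.19 and 9.25 TPM with deleted p53 (0.76 ± 0.16, adjusted p = 0.0316), with CBPWTp53ΔIEC replicate 1 just above the floxed mice. CBPAA mice had Pola2 at 4.65, 4.62 and 4.08 TPM with floxed p53 and 7.48, 6.03 and 4.90 TPM without. Prim1 (chr10:128015168-128030037, plus strand), the catalytic primase subunit, was at 4.25, 4.62 and 4.34 TPM with floxed and 5.54, 11.1 and 9.64 TPM with deleted p53 in the CBPWT mice, a change of 1.00 ± 0.28 that did not pass (adjusted p = 0.0691). CBPAA mice had Prim1 at 6.24, 3.75 and 4.20 TPM with floxed and 9.31, 9.75 and 3.96 TPM with deleted p53. Prim2, the large primase subunit, had a change of 1.11 ± 0.32 (adjusted p = 0.0715). The average over both CBP genotypes placed 3 of the 4 past the cutoff, at 1.21 for Pola1, 0.54 for Pola2 and 0.79 for Prim1.

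The replicative polymerases delta and epsilon differed by subunit. Pole, the catalytic subunit of the leading-strand polymerase, rose by a log2 fold change of 1.72 ± 0.39 (adjusted p = 0.0383) and Pold1, that of polymerase delta, by 1.15 ± 0.27 (adjusted p = 0.0388). Pole2 (chr12:69201773-69228195, minus strand), the second subunit of polymerase epsilon, was at 1.43, 1.22 and 1.20 TPM in CBPWTp53-floxed and 2.00, 4.17 and 4.61 TPM in CBPWTp53ΔIEC crypts (1.49 ± 0.31, adjusted p = 0.0316). CBPAA mice had Pole2 at 1.46, 1.39 and 1.54 TPM with floxed and 3.54, 2.61 and 1.59 TPM with deleted p53. Pold2 (chr11:5872180-5878292, minus strand), an accessory subunit with the second highest level of all members, was at 45.8, 42.7 and 45.3 TPM with floxed and 55.2, 72.8 and 86.9 TPM with deleted p53 in the CBPWT mice (0.70 ± 0.15, adjusted p = 0.0329). CBPAA mice had Pold2 at 54.3, 56.1 and 40.2 TPM with floxed and 74.5, 69.6 and 45.9 TPM with deleted p53. Pold3, the other accessory subunit, hardly moved (0.32 ± 0.12, adjusted p = 0.15), and its highest library was 1.48 times its lowest, against 4.89 times for Pole on the CPM scale. Averaged over both CBP genotypes, 0.90 for Pold1, 1.46 for Pole and 1.08 for Pole2 were past the cutoff.

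Pcna, the sliding clamp, was the most abundant member. Pcna (chr2:132249162-132253314, minus strand) was at 70.8, 77.6 and 67.9 TPM in CBPWTp53-floxed and 95.5, 142 and 146 TPM in CBPWTp53ΔIEC crypts, a log2 fold change of 0.84 ± 0.16 (adjusted p = 0.0256). CBPAA mice had Pcna at 87.01, 72.5 and 74.6 TPM with floxed p53 and 122, 117 and 70.7 TPM without, and replicate 3 of the latter was below all 3 floxed libraries. Among the subunits of replication factor C, which opens the clamp, Rfc3 (0.63), Rfc4 (0.99) and Rfc5 (0.99) rose and Rfc2 (0.75 ± 0.20, adjusted p = 0.0523) and Rfc1 (0.27 ± 0.11, adjusted p = 0.196) did not pass. Rfc1, the large subunit, had the narrowest range of all members over the 12 libraries, 1.40 times from lowest to highest on the CPM scale. Dscc1, of an alternative loader, rose by 1.65 ± 0.34 (adjusted p = 0.0329) but was the rarest member, at 0.412, 0.448 and 0.473 TPM with floxed and 1.07, 1.73 and 1.32 TPM with deleted p53 in the CBPWT mice. Past the cutoff in the average over both CBP genotypes were 0.55 for Pcna, 0.58 for Rfc2, 0.68 for Rfc4 and 0.70 for Rfc5.

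Replication protein A coats single-stranded DNA as a trimer. Rpa1 (0.77 ± 0.15, adjusted p = 0.0273) and Rpa2 rose in CBPWTp53ΔIEC vs CBPWTp53-floxed crypts, and Rpa3 did not pass. Rpa2 (chr4:132768332-132778752, plus strand) was at 7.09, 8.52 and 6.76 TPM with floxed and 10.9, 15.4 and 19.7 TPM with deleted p53 in the CBPWT mice (1.05 ± 0.19, adjusted p = 0.0248). CBPAA mice had Rpa2 at 9.87, 8.94 and 8.72 TPM with floxed and 13.03, 13.95 and 7.94 TPM with deleted p53. Rpa3 (chr6:8255936-8259173, minus strand), the small subunit, was at 28.3, 24.7 and 23.3 TPM with floxed and 22.5, 38.1 and 30.6 TPM with deleted p53 in the CBPWT mice (0.28 ± 0.19, adjusted p = 0.407, edgeR). CBPWTp53ΔIEC replicate 1 was the lowest of the 6 in TPM, but on the CPM scale it was above CBPWTp53-floxed replicates 2 and 3. CBPAA mice had Rpa3 at 24.1, 24.5 and 18.04 TPM with floxed and 30.6, 32.9 and 20.9 TPM with deleted p53. As the least changed subunit was the most abundant, the span from Rpa2 to Rpa3 narrowed from 3.42 to 1.98 times in mean TPM in the CBPWT mice. In the average over both CBP genotypes only Rpa2 of the 3 was past the cutoff, at 0.62.

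All 3 genes of Okazaki fragment maturation rose. Fen1 (chr19:10199132-10204169, minus strand), the flap endonuclease, was at 13.1, 15.4 and 12.5 TPM in CBPWTp53-floxed and 23.3, 34.8 and 40.3 TPM in CBPWTp53ΔIEC crypts (1.27 ± 0.22, adjusted p = 0.0236), so that every p53ΔIEC library was above every floxed one. CBPAA mice had Fen1 at 20.6, 18.6 and 12.8 TPM with floxed and 28.1, 29.2 and 14.5 TPM with deleted p53. Lig1, the ligase that seals the nicks, changed by 1.27 ± 0.23 (adjusted p = 0.0248) and Dna2, a nuclease for long flaps, by 1.09 ± 0.27 (adjusted p = 0.0459). Both fork protection genes rose as well. Timeless (chr10:128232065-128252941, plus strand) was at 2.09, 1.67 and 2.62 TPM with floxed and 3.47, 5.79 and 7.69 TPM with deleted p53 in the CBPWT mice (1.41 ± 0.28, adjusted p = 0.0286). CBPAA mice had Timeless at 4.44, 2.98 and 2.43 TPM with floxed and 6.28, 5.54 and 2.88 TPM with deleted p53. Tipin (chr9:64281581-64305424, plus strand), its partner, was at 9.40, 7.52 and 8.81 TPM with floxed and 10.6, 18.3 and 20.9 TPM with deleted p53 in the CBPWT mice (0.96 ± 0.23, adjusted p = 0.0389). CBPAA mice had Tipin at 12.2, 8.62 and 10.4 TPM with floxed and 16.6, 18.5 and 9.89 TPM with deleted p53. For Fen1, Timeless and Tipin CBPAAp53ΔIEC replicate 3 lay within the range of the CBPAAp53-floxed mice. The averages over both CBP genotypes, all past the cutoff, were 0.80 for Fen1, 0.89 for Lig1, 0.86 for Dna2, 0.68 for Tipin and 0.93 for Timeless.

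The enzymes of deoxynucleotide supply held the 2 largest changes, those of Tk1 and Rrm2. Rrm2 (chr12:24708241-24714146, plus strand), the S-phase small subunit of ribonucleotide reductase, was at 14.3, 8.27 and 10.97 TPM in CBPWTp53-floxed and 25.8, 39.5 and 53.7 TPM in CBPWTp53ΔIEC crypts, a log2 fold change of 1.83 ± 0.27 (adjusted p = 0.017). CBPAA mice had Rrm2 at 20.9, 17.7 and 13.2 TPM with floxed p53 and 35.6, 30.7 and 16.9 TPM without. Its levels in CBPAAp53-floxed crypts thus lay mostly above those of CBPWTp53-floxed crypts, a difference of 0.74 ± 0.27 that did not pass (adjusted p = 0.618). Rrm1, the large subunit, rose by 1.49 ± 0.29 (adjusted p = 0.029), Tk1, which salvages thymidine, by 1.99 ± 0.35 (adjusted p = 0.0256), and Dut, which removes dUTP, by 0.90 ± 0.19 (adjusted p = 0.0317). Tyms, the thymidylate synthase, had a change of 0.99 ± 0.27 and did not pass (adjusted p = 0.061): it was at 5.44 TPM in CBPWTp53ΔIEC replicate 1 and at 13.2 and 11.7 TPM in the other two. Averaged over both CBP genotypes, 1.10 for Rrm1, 1.19 for Rrm2, 0.83 for Tyms and 1.48 for Tk1 were past the cutoff.

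Genes that restore chromatin and DNA methylation behind the fork followed. Chaf1a (chr17:56040439-56072289, plus strand), the large subunit of chromatin assembly factor 1, was at 3.07, 2.41 and 2.69 TPM with floxed and 4.08, 7.88 and 9.90 TPM with deleted p53 in the CBPWT mice (1.41 ± 0.26, adjusted p = 0.0254). CBPAA mice had Chaf1a at 3.81, 2.87 and 2.84 TPM with floxed and 7.55, 7.09 and 3.58 TPM with deleted p53. Chaf1b rose by 1.62 ± 0.30 (adjusted p = 0.0256) and Uhrf1, which reads hemimethylated DNA, by 1.69 ± 0.35 (adjusted p = 0.034). Dnmt1 (chr9:20907209-20959888, minus strand), the maintenance DNA methyltransferase, was at 13.7, 15.4 and 16.5 TPM with floxed and 15.1, 30.2 and 39.6 TPM with deleted p53 in the CBPWT mice, with CBPWTp53ΔIEC replicate 1 inside the floxed range in TPM (0.88 ± 0.24, adjusted p = 0.061). CBPAA mice had Dnmt1 at 20.3, 12.6 and 12.9 TPM with floxed and 26.9, 28.9 and 16.6 TPM with deleted p53. All 4 were past the cutoff in the average over both CBP genotypes, at 1.11 for Chaf1a, 1.11 for Chaf1b, 1.33 for Uhrf1 and 0.71 for Dnmt1.

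**Figure D2:**
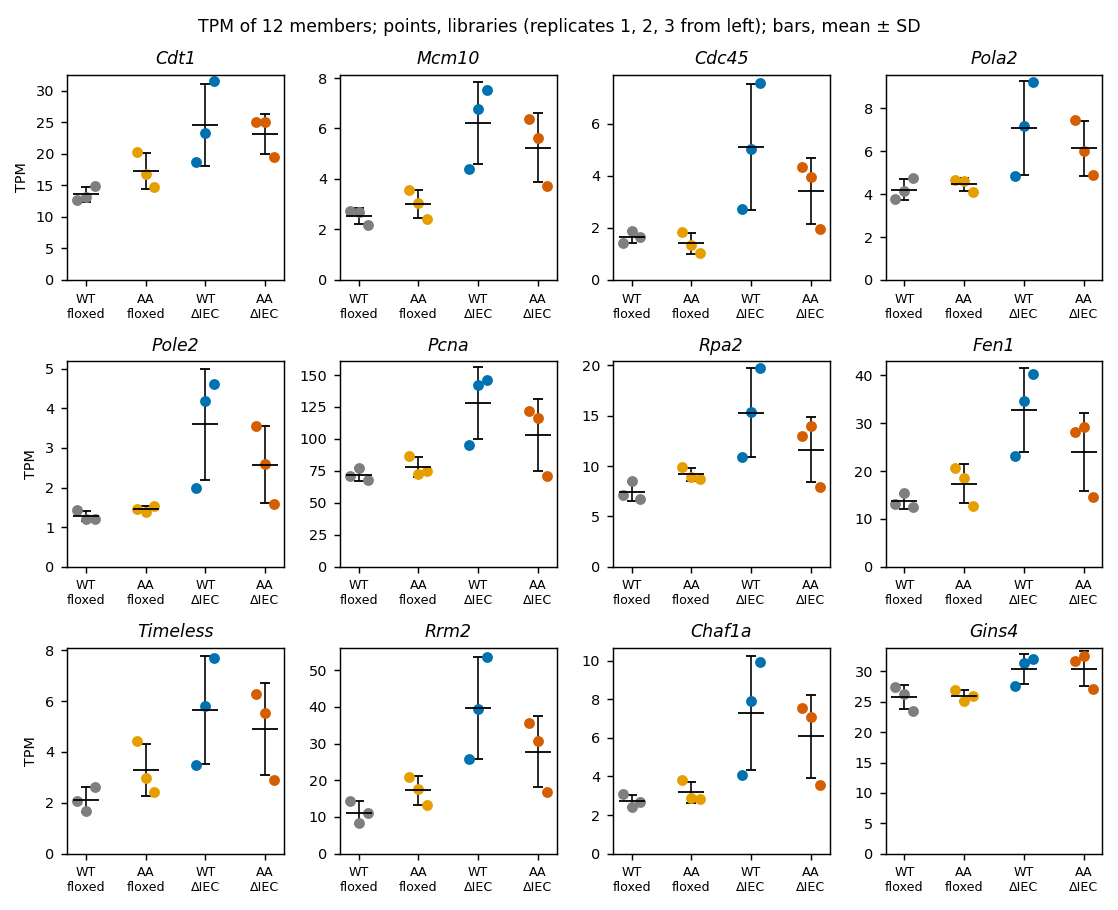
TPM (y axis, from 0) by group (x axis: WT and AA, the CBP genotype; floxed and ΔIEC, the p53 state) for the member with the lowest unadjusted p in each of the 11 roles, and for Gins4; points are libraries in the order of replicates 1, 2 and 3, and bars give the mean ± SD. CBPWTp53ΔIEC replicate 1 is the lowest of its group and CBPAAp53ΔIEC replicate 3 the lowest of its own in every panel.

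The average over both CBP genotypes, which compares 6 p53ΔIEC with 6 p53-floxed libraries, placed 36 of 51 members higher and 0 lower, against 2.77% of all genes higher, with a median log2 fold change of 0.78 (all genes 0.0084). This comparison shares its libraries with those of each CBP genotype. Of the 36, 30 also passed in the CBPWT mice alone; Orc6, Cdc6, Prim1, Rfc2, Tyms and Dnmt1 passed only in the average, and Pold2, Rfc3, Dscc1, Rpa1 and Dut only in the CBPWT mice. Leaving out 1 library gave 10 to 45 members: 15, 17 and 10 without CBPWTp53-floxed replicates 1, 2 and 3, 14 without CBPAAp53-floxed replicate 3, 21 and 13 without CBPWTp53ΔIEC replicates 2 and 3, and 14 and 19 without CBPAAp53ΔIEC replicates 1 and 2. It was 45 without CBPAAp53ΔIEC replicate 3, where 4.67% of all genes rose. Without CBPWTp53ΔIEC replicate 1 it was 44, where 4.9% of all genes rose. For the other fits no share of all genes is given, so a general loss of calls cannot be told from one of the members.

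In the CBPAA mice the same deletion went with smaller and less even differences. In CBPAAp53ΔIEC vs CBPAAp53-floxed crypts 0 of 51 members passed the cutoff with edgeR, where 0.0274% of all genes did, and 0 passed with DESeq2, where 0.513% of all genes did. At an unadjusted p under 0.05, 18 members were higher and 0 lower (7.19% of all genes higher). The median log2 fold change of the members was 0.48 (all genes 0.015), and 49 of 51 were above 0 (52.2% of all genes). Pole (1.20 ± 0.38) and Cdc45 (1.16 ± 0.32) had the largest values, and Rfc3 (-0.21 ± 0.13) and Rfc1 (-0.0008 ± 0.11) were at or below 0. On the CPM scale all 3 CBPAAp53ΔIEC libraries were above all 3 CBPAAp53-floxed libraries for 3 members, Cdt1, Mcm10 and Cdc45, and below for 1, Rfc3, while 7.86% of all genes were above.

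Role by role, the medians of the changes with p53 deletion were smaller in the CBPAA than in the CBPWT mice throughout. Chromatin and methylation genes had medians of 1.52 in the CBPWT and 0.70 in the CBPAA mice, and deoxynucleotide supply 1.49 and 0.67. Helicase activation had 1.14 and 0.79, the MCM genes 1.12 and 0.49, polymerases delta and epsilon 1.15 and 0.65, and alpha-primase 1.06 and 0.50. The clamp and its loaders (0.84 and 0.26), replication protein A (0.77 and 0.21) and origin licensing (0.70 and 0.38) had the smallest medians in both, and Okazaki fragment maturation (1.27 and 0.51) and fork protection (1.18 and 0.43) lay between. These medians rest on 2 to 8 genes each and were not tested.

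This outcome turned on 1 library. Without CBPAAp53ΔIEC replicate 3, 15 of 51 members rose in the same comparison, with a median log2 fold change of 0.72, and 1.76% of all genes rose. The 15 were Uhrf1, Tk1, Chaf1a, Mcm7, Rrm1, Mcm10, Cdc45, Pole, Mcm5, Rfc4, Pola1, Mcm2, Gins2, Tyms and Mcm3, with changes of 0.67 to 1.52. Without the 2 libraries with the most Lyz1 the count was 34 (5.01% of all genes), with the same median of 0.72. Of these 2, CBPWTp53ΔIEC replicate 1 is not in this comparison and enters the fit mainly through the spread shared by the 4 groups. The counts of 15 and 34 thus differ at a like size of change. Without the 4 libraries over 100 TPM of Lyz1 the median log2 fold change was 0.67, with CBPAAp53ΔIEC replicate 2 alone in its group. Leaving out any other single library kept the count at 0.

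The members were also followed library by library. Relative to the mean of the 6 floxed libraries, the median member was 1.09 and 1.06 higher on the log2 CPM scale in CBPWTp53ΔIEC replicates 2 and 3, 0.86 and 0.89 in CBPAAp53ΔIEC replicates 1 and 2, 0.58 in CBPWTp53ΔIEC replicate 1 and 0.029 in CBPAAp53ΔIEC replicate 3. Every one of the first 4 libraries had all 51 members above that mean, and CBPAAp53ΔIEC replicate 3 had 28; of the 14504 tested genes with reads in every library, 51.9% to 53% were above it in the 4 and 51.4% in the last. Against all 3 floxed libraries of its own CBP genotype, a p53ΔIEC library was the higher for 47, 51 and 50 members in the CBPWT mice and for 46, 48 and 4 in the CBPAA mice. Over all genes tested the shares were 39, 37.2 and 36.8% in the CBPWT and 29.7, 30.9 and 21.3% in the CBPAA mice. The first 4 libraries named above were singled out by the members' own levels, so the ranks that follow describe that choice and are no further support. For 37 of the 51 members the 4 highest libraries were those same 4 (8.43% of all genes), and 48 had their maximum in one of them (35.1% of all genes); the 3 with a maximum elsewhere, Gins4, Rfc3 and Gmnn, had it in CBPWTp53ΔIEC replicate 1. The scale matters for that library: in TPM Gins4 was lower there than in the other two of its group.

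The 2 lower p53ΔIEC libraries were also those with the most Lyz1, at 2281 and 789 TPM, but CBPAAp53ΔIEC replicate 1, with 410.1 TPM, was among the 4 high ones. Mki67, a general proliferation marker, was at 30.6 and 25.7 TPM in those 2 lower libraries, at 75.7 to 107 TPM in the 4 high ones and at 12.9 to 31.2 TPM in the 6 floxed ones. The 4 high libraries also carry neighbouring numbers in their names, away from those of the 2 lower ones. All 6 floxed libraries and the 2 lower ones carry smaller numbers than these 4. The 4 high libraries thus differ from the floxed ones in this number as well as in p53 state. In CBPWTp53ΔIEC vs CBPWTp53-floxed this holds for CBPWTp53ΔIEC replicates 2 and 3. The part of these differences in the result was not tested.

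**Figure D3:**
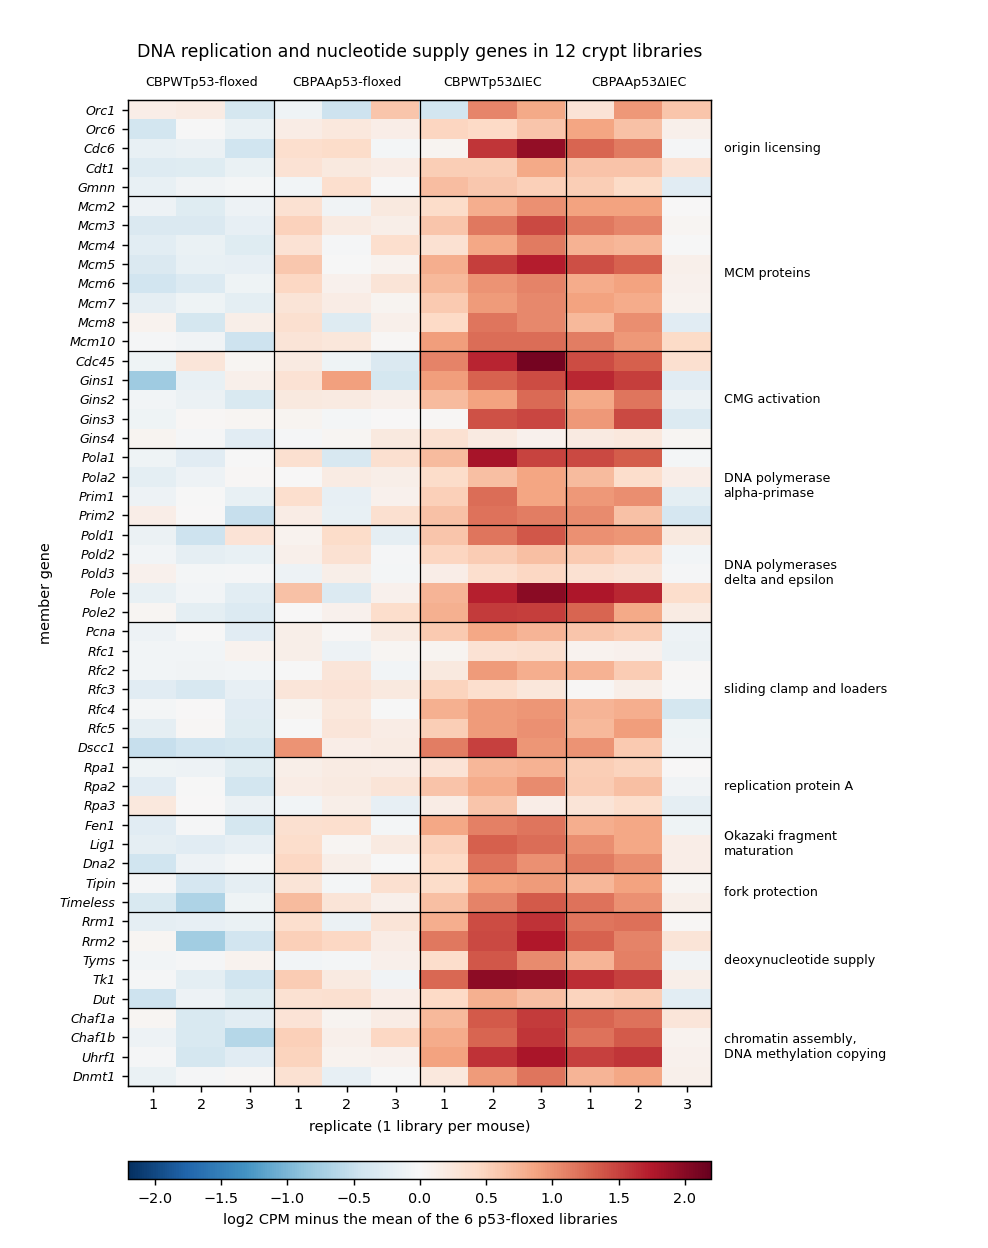
Log2 CPM minus the mean of the 6 p53-floxed libraries (colour) for the 51 members (rows, by role) in the 12 libraries (columns, by group and replicate). Red is above and blue below that mean; CBPWTp53ΔIEC replicates 2 and 3 and CBPAAp53ΔIEC replicates 1 and 2 are red for all 51 members, CBPWTp53ΔIEC replicate 1 for 50 and CBPAAp53ΔIEC replicate 3, which is paler, for 28.

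**Figure D4:**
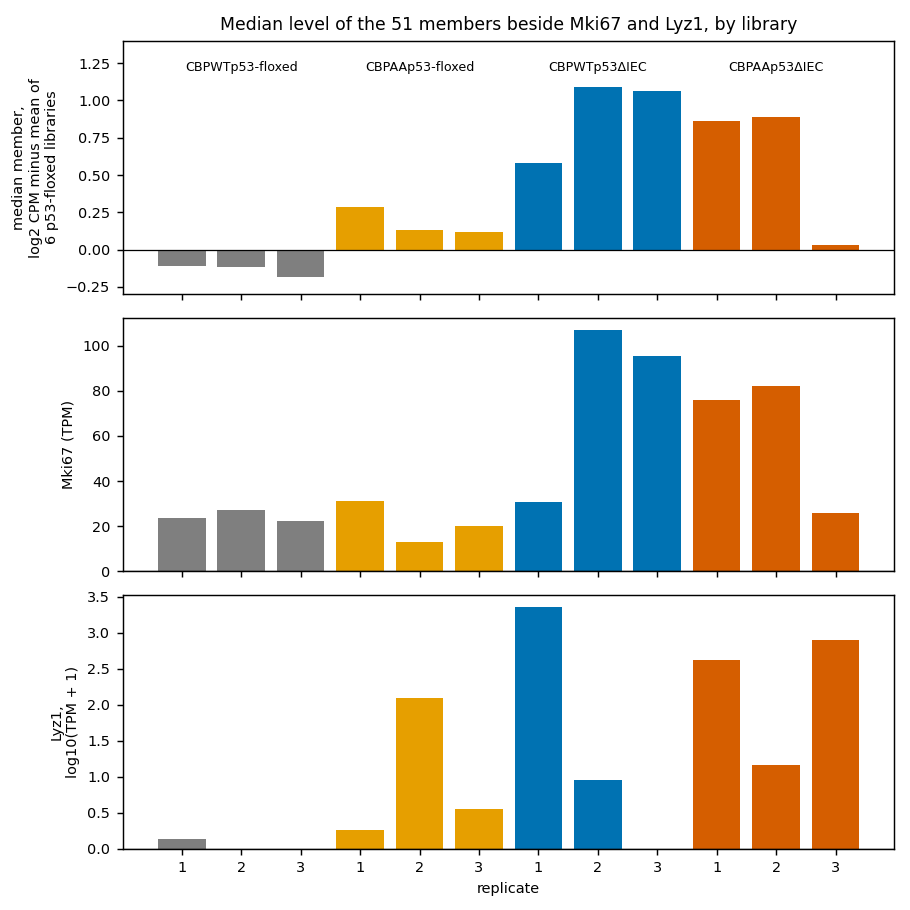
Bars for each library (x axis, replicates by group): the median over the 51 members of log2 CPM minus the mean of the 6 floxed libraries (top), Mki67 in TPM (middle) and Lyz1 as log10 of TPM + 1 (bottom). The median member is highest in 4 p53ΔIEC libraries, at 0.86 to 1.09, which are also those with the most Mki67.

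The CBP genotype on its own was compared with floxed and with deleted p53. In CBPAAp53-floxed vs CBPWTp53-floxed crypts 0 of 51 members passed the cutoff with edgeR and 0 with DESeq2, where 0% and 0.233% of all genes did, and the lowest adjusted p of a member was 0.605. The values leaned to the higher side: 48 of 51 members were above 0 (52% of all genes), with a median of 0.34 (all genes 0.012), and 9 had an unadjusted p under 0.05 with a positive change (3.86% of all genes). The largest were Dscc1 (0.92 ± 0.36), Rrm2 (0.74 ± 0.27), Timeless (0.73 ± 0.28) and Chaf1b (0.72 ± 0.31). All 3 CBPAAp53-floxed libraries had a positive median deviation from the floxed mean, 0.29, 0.13 and 0.12, and all 3 CBPWTp53-floxed libraries a negative one, -0.11, -0.11 and -0.19. That mean is taken over these same libraries, so higher values in either group go with lower ones in the other. Without the 4 libraries over 100 TPM of Lyz1, of which CBPAAp53-floxed replicate 2 is one, Mcm6 (0.63) and Rrm1 (0.51) passed, with 0.276% of all genes past the cutoff in either direction.

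In CBPAAp53ΔIEC vs CBPWTp53ΔIEC crypts 0 members passed with edgeR (0.00684% of all genes) and 0 with DESeq2 (0.0137%). The median was -0.28 (all genes -0.01), 49 of 51 members were below 0, and 4 had an unadjusted p under 0.05 with a negative change (1.76% of all genes). Without CBPAAp53ΔIEC replicate 3 the median was -0.04. The interaction, the change with p53 deletion in CBPAA mice minus that in CBPWT mice, passed the cutoff for 0 members with edgeR (0.00684% of all genes) and for 1 with DESeq2, Rfc3, at -0.84 (0.205% of all genes). All 51 values were below 0, with a median of -0.58 (all genes -0.023), and 18 had an unadjusted p under 0.05 (5.28% of all genes). The furthest from 0 were Dscc1 (-1.59 ± 0.48), Rrm2 (-1.28 ± 0.37) and Tk1 (-1.02 ± 0.48), and the lowest adjusted p of a member was 0.481. The median was -0.36 without CBPAAp53ΔIEC replicate 3, and without the 4 libraries over 100 TPM of Lyz1 2 members passed on the lower side, Rrm1 (-0.80) and Lig1 (-0.92), with 0.23% of all genes past the cutoff; that fit has CBPAAp53ΔIEC replicate 2 alone in its group. The members share their libraries, so 51 values on 1 side are not 51 separate observations, and a difference in response between the CBP genotypes was not shown for any single member by edgeR on the 12 libraries or with 1 library left out.

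Ribonucleotide reductase can use either of a pair of small subunits: Rrm2, made in S phase, and Rrm2b, a known p53 target that serves cells outside S phase. They moved apart in the CBPWT mice. Rrm2b, which is not among the 51, was at 3.57, 3.31 and 3.30 TPM in CBPWTp53-floxed and 1.59, 1.74 and 2.35 TPM in CBPWTp53ΔIEC crypts (log2 fold change -0.82 ± 0.18, adjusted p = 0.0349, edgeR), with no overlap. CBPAA mice had Rrm2b at 3.04, 1.72 and 2.50 TPM with floxed and 2.48, 2.44 and 2.70 TPM with deleted p53, which overlapped. The ratio of Rrm2 to Rrm2b TPM was 4.01, 2.50 and 3.33 in CBPWTp53-floxed crypts and 16.3, 22.7 and 22.8 in CBPWTp53ΔIEC crypts. It was 6.88, 10.3 and 5.28 in CBPAAp53-floxed and 14.3, 12.6 and 6.26 in CBPAAp53ΔIEC crypts. The mean log2 ratio was 2.66 higher with p53 deleted in the CBPWT mice (two-sided exact permutation test, p = 0.1, the smallest that 3 against 3 allow) and 0.53 higher in the CBPAA mice (exact permutation p = 0.3). Over both genotypes, 6 against 6, the difference was 1.60 (exact permutation p = 0.00649, adjusted over the 3 comparisons p = 0.0195), with 15.8 ± 6.34 (SD, n = 6) against 5.38 ± 2.86 (SD, n = 6). Libraries were permuted here without regard to CBP genotype, so this p does not show a shift in the CBPAA mice.

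**Figure D5:**
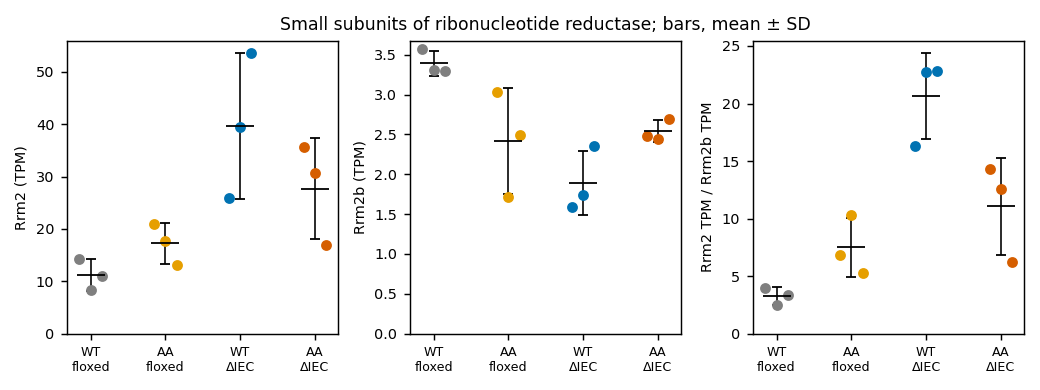
Rrm2 (left, TPM), Rrm2b (middle, TPM) and their ratio (right) by group (x axis: WT and AA, the CBP genotype; floxed and ΔIEC, the p53 state); points are libraries, bars the mean ± SD of 3. The ratio is 16.3 to 22.8 in CBPWTp53ΔIEC and 2.50 to 4.01 in CBPWTp53-floxed crypts, and the 2 CBPAA groups overlap.

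Other genes of the same processes moved less evenly than the members. Of 25 further replication genes, 24 were tested, and 8 rose and 0 fell in CBPWTp53ΔIEC vs CBPWTp53-floxed crypts, from Clspn, a checkpoint mediator (2.08 ± 0.43), to Pole3, a histone-fold subunit of polymerase epsilon (0.50 ± 0.12), with a median of 0.52. Of 32 further genes of nucleotide synthesis, 0 rose and 2 fell (of all genes 0.856% fell), Rrm2b and Paics of purine synthesis (-0.74 ± 0.15); 15 had an unadjusted p under 0.05 on the higher side, and 6 rose with DESeq2. Among 22 E2F, RB and S-phase cyclin genes, 7 rose and 0 fell, from Ccna2, cyclin A2 (2.04 ± 0.44), to E2f1 (1.23 ± 0.30, adjusted p = 0.0418). E2f1 was at 3.47, 3.24 and 3.89 TPM in CBPWTp53-floxed and 4.34, 8.90 and 11.9 TPM in CBPWTp53ΔIEC crypts. CBPAA mice had E2f1 at 4.59, 4.22 and 3.25 TPM with floxed and 9.42, 9.15 and 4.07 TPM with deleted p53, with the low libraries the same as for the members. Of 18 mitosis genes 14 rose and 0 fell, from Plk1 (2.30 ± 0.48) to Ccnb2 (1.71 ± 0.40), with a median of 1.896 against 1.05 for the members; Mki67 had a change of 1.64 ± 0.49 and did not pass (adjusted p = 0.0966). In CBPAAp53ΔIEC vs CBPAAp53-floxed crypts 0 of these genes passed with edgeR, and 18 of 18 mitosis genes, 11 of 22 E2F, RB and cyclin genes and 8 of 24 replication genes had an unadjusted p under 0.05 on the higher side, with 8, 0 and 0 passing with DESeq2.

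Of 13 p53 and p53 target genes, 7 fell and 0 rose in CBPWTp53ΔIEC vs CBPWTp53-floxed crypts (edgeR; 6 fell with DESeq2). They were Trp53 (-2.64 ± 0.22), Phlda3 (-3.43 ± 0.73), Ephx1 (-1.79 ± 0.22), Trp53inp1 (-0.86 ± 0.17), Rrm2b, Ccng1 (-0.67 ± 0.13) and Eda2r, which had the largest fitted change and was at 0.736 ± 0.163 TPM (SD, n = 3) in CBPWTp53-floxed and 0.00945 ± 0.0164 TPM in CBPWTp53ΔIEC crypts. Cdkn1a, which encodes the p21 inhibitor of the kinases that start S phase, was at 173, 155 and 179 TPM in CBPWTp53-floxed and 180.1, 126.7 and 173 TPM in CBPWTp53ΔIEC crypts (-0.016 ± 0.20, adjusted p = 0.974), and Mdm2 (-0.13 ± 0.12), Bax (0.12 ± 0.19), Sesn2 (0.028 ± 0.20), Zmat3 (-0.27 ± 0.13) and Aen (0.035 ± 0.18) did not pass either. Of 12 stem cell genes 0 passed (edgeR; 2 with an unadjusted p under 0.05 on the higher side, 1 with DESeq2), of 12 differentiated colonocyte genes 1 fell, Slc9a3 (-1.17 ± 0.27), and of 8 goblet cell genes 0 passed (0 with DESeq2). Of the 8 epithelial, 9 tested leukocyte, 10 dissociation stress and 2 tested endothelial genes 0 passed with edgeR and 0 with DESeq2, with an unadjusted p under 0.05 for 2 of the epithelial genes and 0 of the others. Of the stromal genes 2 were tested and 1 fell, Pdgfrb (-0.97 ± 0.22, from 5.54 ± 0.498 TPM). Of the 8 Paneth and 12 tested small intestine genes, 0 passed with edgeR, 2 and 2 had an unadjusted p under 0.05 on the higher side, and 6 and 2 passed with DESeq2. In the CBPAA mice 3 genes of the p53 list fell with the deletion: Trp53 (-2.58 ± 0.22), Ephx1 (-1.93 ± 0.22) and Eda2r, at 0.782 ± 0.171 TPM with floxed and 0.0317 ± 0.0327 TPM with deleted p53 (SD, n = 3).

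Some members share exonic bases with another gene, so reads there may be assigned to either or to none, and the strand setting of the counting is not given in the sources used here. This held for 17 of 51 members, and for 7 over more than 10% of their exonic bases: Fen1 (78.8%, with the barely expressed Gm10143), Gins2 (67.3%, with Gse1), Chaf1a (52.5%, with Ubxn6), Rfc2 (15.1%, with Lat2), Rfc4 (12.7%, with Eif4a2), Orc1 (10.8%, with Gm12743) and Rfc5 (10.7%, with Wsb2), all on the opposite strand. Pcna and Tyms also have annotated pseudogene copies, and how reads that match both were treated is not given. The levels of these genes are therefore less certain than those of the rest.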

How the data were processed

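RNA of colonic crypts from 12 mice in 4 groups was sequenced by the authors from stranded mRNA libraries. Per the labels, reads were trimmed with fastp (version 0.20.0), aligned to GRCm38 with HISAT2 (version 2.1.0) and counted per gene with featureCounts of Subread (version 2.0.1); the strand setting of the counting is not given in the sources used here. The authors deposited 1 table with raw read counts and TPM for each library, beside statistics of comparisons the authors had made (fold changes, p-values), which were not used. Genes were tested on the counts with edgeR (version 4.0.16, R version 4.3.3): TMM normalization after filterByExpr (count minimum 10), 1 model of the 4 groups over 12 libraries, and the robust quasi-likelihood test. Adjusted p-values (Benjamini-Hochberg) run over 14610 genes, and a gene passed with a log2 fold change beyond 0.5 either way where that p was below 0.05. TPM served for levels and for the ratio of Rrm2 to Rrm2b, compared on the log2 scale by exact permutation of libraries.

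The 6 comparisons were: p53 deletion in each CBP genotype and averaged over both, CBP genotype at each p53 state, and the interaction. Of each of the 11 roles, the member with the highest mean TPM and the one with the lowest p in CBPWTp53ΔIEC vs CBPWTp53-floxed are given in every library, members past the cutoff elsewhere with that value, and of other lists the largest and the smallest change past the cutoff; the remaining values of single genes were added after they were seen. The members and all lists were chosen with earlier results of these data known. Alternatives were DESeq2 (version 1.42.0), its size factors, no filter, a minimum of 10 reads in every library, no fold cutoff, a fit of the groups compared only, a replicate block, and leaving out each library. The tests were checked on simulated counts. The replicates are separate mice per the labels. Libraries of different groups with the same replicate number mostly did not deviate together. Of 18 such pairs, 4 had deviations that correlated over 0.1 (range -0.57 to 0.60), so replicate numbers were not used as pairs.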

Additional observations from a re-analysis of the deposited data

How the results depend on the processing

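The count of members past the cutoff depended more on the setting than the size of the changes, and no result listed in this paragraph changed direction under any alternative. For CBPWTp53ΔIEC vs CBPWTp53-floxed, 26 members passed with no filter on low counts and 35 with DESeq2's size factors or with no fold cutoff. There were 36 with 10 reads required in every library, 43 with the groups compared only and 44 with DESeq2, against 35 as reported. Leaving out 1 library gave 0 to 45. Of all genes, 2.29% rose as reported, 4.18% with DESeq2 and 3.62% without CBPAAp53ΔIEC replicate 3, a fit with 45 members. For the average over both CBP genotypes the values were 30 with no filter, 38 with no fold cutoff and 41 with DESeq2, against 36. Leaving out 1 library gave 10 to 45. In the average 4% of all genes rose with DESeq2, against 2.77% as reported. With no fold cutoff, 544 of the 14610 genes passed in either direction in CBPWTp53ΔIEC vs CBPWTp53-floxed and 720 in the average. For the fits with no filter, DESeq2's size factors, 10 reads in every library or the groups compared only, no share is given. The same holds for most fits with 1 library left out, so these shifts are not read as particular to the members. A replicate block treats libraries with the same replicate number as pairs. With it, 5 members (Cdt1, Mcm10, Fen1, Rrm2 and Tk1) passed in the first comparison, where 0.164% of all genes rose. In the average 22 passed, where 1.72% of all genes rose. Only 4 of 18 pairs of libraries with the same replicate number had deviations that correlated over 0.1 (range -0.57 to 0.60). The replicate numbers were thus not taken as pairs. In CBPAAp53ΔIEC vs CBPAAp53-floxed leaving out 1 library gave 0 to 15 members, and in CBPAAp53-floxed vs CBPWTp53-floxed, CBPAAp53ΔIEC vs CBPWTp53ΔIEC and the interaction it gave 0. The interaction had 1 member with DESeq2. In alternatives chosen after the data were seen, leaving out the 4 libraries over 100 TPM of Lyz1 gave 27 members in CBPAAp53ΔIEC vs CBPAAp53-floxed, 2 in CBPAAp53-floxed vs CBPWTp53-floxed and 2 in the interaction, and leaving out the 2 with the most Lyz1 gave 34 in the first of these. The log2 difference in the ratio of Rrm2 to Rrm2b was 2.48 to 2.82 in the CBPWT mice, 0.30 to 0.90 in the CBPAA mice and 1.41 to 1.84 over both with 1 library left out. The cause of these shifts was not tested. Members with few reads, such as Dscc1 (8 to 46 counts per library) and Gins1 (9 to 63), are those whose changes the depth limits most.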
